A study of Homo sapiens with 12 samples.

Results

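The epidermal differentiation complex is a stretch of human chromosome 1 that holds the structural genes of the cornified layer of skin and oral mucosa. The members described here were all deposited genes on chromosome 1 named as S100A, SPRR or LCE genes, together with IVL, LOR, FLG, FLG2, HRNR, RPTN, TCHH and CRNN. This rule, which uses names and position and no measured value, gave 54 of the 60099 deposited genes. They lie between positions 151982915 and 153632039 of GRCh38, a span of 1.65 Mb that also holds 33 other deposited genes. There were 16 S100A genes, 12 SPRR genes, 18 LCE genes, 6 fused-type S100 genes (FLG, FLG2, HRNR, RPTN, TCHH and CRNN) and the pair IVL and LOR.

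Cal27 and HN30, which are established head and neck squamous cell carcinoma (HNSCC) lines, were profiled by RNA sequencing, either untreated or kept for 24 h with IFNα, a type I interferon. Of the 12 samples, letters A and D were untreated, B and E had received 20 ng/ml and C and F 200 ng/ml, with replicates 1 and 2 of each letter. Each dose occurred 1 time among A, B and C and 1 time among D, E and F, and these 2 line sets, written A-C and D-F, were taken as the 2 lines. Which of them is Cal27 is not given in the sources used here. Across 13033 genes, correlations were 0.94 to 0.976 within the sets (30 pairs of samples) and 0.678 to 0.717 between them (36 pairs). Nothing states that replicates came from separate cultures, so p-values measure the spread between these samples, which may be technical.

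In stratified squamous epithelium, cells leaving the basal layer switch on these genes in sequence while they build the cornified envelope, a crosslinked protein shell beneath the plasma membrane. Involucrin (IVL) forms an early scaffold, small proline-rich (SPRR) proteins act as crosslinkers, and loricrin (LOR) and the late cornified envelope (LCE) proteins reinforce the shell late in differentiation. Filaggrin and the other fused-type S100 proteins organise keratin filaments or the envelope of the uppermost cells. S100A proteins are small calcium binding proteins, of which S100A7, S100A8 and S100A9 are antimicrobial or inflammatory proteins that keratinocytes make under stress, while S100A6, S100A10 and S100A11 are made by many cell types.

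Sequences upstream of the start sites were taken from RefSeq (GRCh38.p14), where 50 of the 54 members had an entry and LCE1B, SPRR2C, SPRR2D and SPRR2E were not matched. In the 250 bases before the start, matches on both strands are given for 2 motifs: TGANTCA, bound by AP-1 factors, and GAAANNGAA, a core of the interferon response element. Matches of different motifs were counted separately where they overlapped. The AP-1 motif was found upstream of 17 of the 50 matched members, against 6.57% of all 35116 promoters in the table. For both motifs a member counted if any of its promoters had a match (58 promoters for the 50 members), while the share is of single promoters. By class it was present for 5 of 6 fused-type S100 genes, for 6 of 9 SPRR genes, for both IVL and LOR, for 4 of 16 S100A genes and for 0 of 17 LCE genes. The interferon element core was found for 5 members (FLG2, LCE1C, SPRR1A, S100A8 and S100A14), against 6.88% of all promoters. The upstream regions of 4 members that differed in level are shown. SPRR1B carries the AP-1 motif and was detected mainly in A-C. IVL carries it and was detected at low counts in every letter except A. FLG carries it and had at most 12 counts in a sample, with none in D-F. S100A9 carries neither motif and was among the abundant members in A-C. Capitals mark TGANTCA or its reverse complement, and each sequence reads 5′ to 3′ on the strand of its gene.
SPRR1B, chr1:153030953-153031202, plus strand: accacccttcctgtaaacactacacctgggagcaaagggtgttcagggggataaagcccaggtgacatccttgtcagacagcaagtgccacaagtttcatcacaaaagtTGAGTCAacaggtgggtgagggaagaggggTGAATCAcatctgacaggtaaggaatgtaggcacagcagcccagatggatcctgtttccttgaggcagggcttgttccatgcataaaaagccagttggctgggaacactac
IVL, chr1:152908296-152908545, plus strand: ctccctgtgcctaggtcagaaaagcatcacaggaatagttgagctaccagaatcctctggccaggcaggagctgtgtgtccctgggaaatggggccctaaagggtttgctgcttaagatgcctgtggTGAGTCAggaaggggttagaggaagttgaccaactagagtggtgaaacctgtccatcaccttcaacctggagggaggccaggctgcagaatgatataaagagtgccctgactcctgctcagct
FLG, chr1:152325240-152325489, minus strand: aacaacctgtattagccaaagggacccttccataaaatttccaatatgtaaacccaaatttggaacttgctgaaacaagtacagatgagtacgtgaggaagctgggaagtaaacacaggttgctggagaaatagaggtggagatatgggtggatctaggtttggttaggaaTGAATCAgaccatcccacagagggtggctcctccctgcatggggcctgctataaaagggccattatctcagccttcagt
S100A9, chr1:153357604-153357853, plus strand: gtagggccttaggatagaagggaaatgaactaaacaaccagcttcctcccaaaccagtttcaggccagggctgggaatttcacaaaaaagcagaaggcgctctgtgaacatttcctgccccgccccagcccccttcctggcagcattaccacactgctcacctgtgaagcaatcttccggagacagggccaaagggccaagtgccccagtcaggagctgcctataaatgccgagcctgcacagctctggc
SPRR1B held 2 copies of the motif, beginning 141 and 111 bases before the start. In IVL it began 123 bases and in FLG 79 bases before the start.

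Total estimated counts were 10517448 to 16056734 per sample. Every untreated sample (at least 12670755) had more counts than every 200 ng/ml sample (at most 11854183), and the part of depth in the comparisons of dose was not tested. A count of 0 allowed a level of up to 0.187 to 0.285 CPM (counts scaled to library size), taking 3 counts as the limit, which covers counting error only. Of 6 squamous markers, 6 in A-C and 5 in D-F had a mean above 1 TPM (the deposited level, scaled for transcript length and depth), with KRT14 at 41.9 to 49.2 TPM in A-C and at most 0.254 TPM in D-F. Among markers of other cells, 1 of 5 leukocyte, 2 of 5 fibroblast and 1 of 3 endothelial genes passed 1 TPM in A-C. Their sums were 8.15 to 17.5, 4.78 to 14.0 and 15.3 to 21.7 TPM. In D-F the numbers were 1, 1 and 0, with sums of 5.34 to 39.6, 8.87 to 13.5 and 0.10 to 0.73 TPM. PTPRC and CD3E, which define leukocytes, stayed at or below 0.0425 TPM throughout, and the endothelial sum in A-C was nearly all CDH5. The leukocyte sum was nearly all CD68, a lysosomal protein, which rose at 200 ng/ml (log2 fold change 1.77, SE 0.14, edgeR adjusted p = 4.33e-05), and its part in the results was not tested. The interferon-induced genes ISG15 and IFIT1 rose at 200 ng/ml, and ISG15 went from 86.3 and 130 TPM in A to 825 and 723 TPM in C and from 21.5 and 33.8 TPM in D to 1367 and 1506 TPM in F.

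Most S100A genes, which lie toward both ends of the complex, were detected, and most members between them were silent or nearly so. Of the members between them, SPRR1A and SPRR1B passed a mean of 1 TPM in A-C, SPRR2A in C and IVL in D. A mean above 1 TPM was reached in at least 1 of the 6 letters by 17 of the 54 members, namely 13 S100A genes, SPRR1A, SPRR1B, SPRR2A and IVL. No LCE gene, no fused-type S100 gene and not LOR did so. In A-C 15 members passed this level and in D-F 13. S100A2, S100A3, S100A4, S100A6, S100A9, S100A10, S100A11, S100A13, S100A14 and S100A16 passed it in every letter. Just above the level were IVL in D (mean 1.19 TPM), S100A5 in E (1.25 TPM), SPRR2A in C (1.42 TPM) and S100A8 in D (1.45 TPM), and just below it was S100A8 in E (0.976 TPM). Of the 37 members never above it, 23 had 0 counts in all 12 samples, 17 of them LCE genes. The other 14 had at most 26 counts and 1.202 TPM in any sample.

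**Figure D1:**
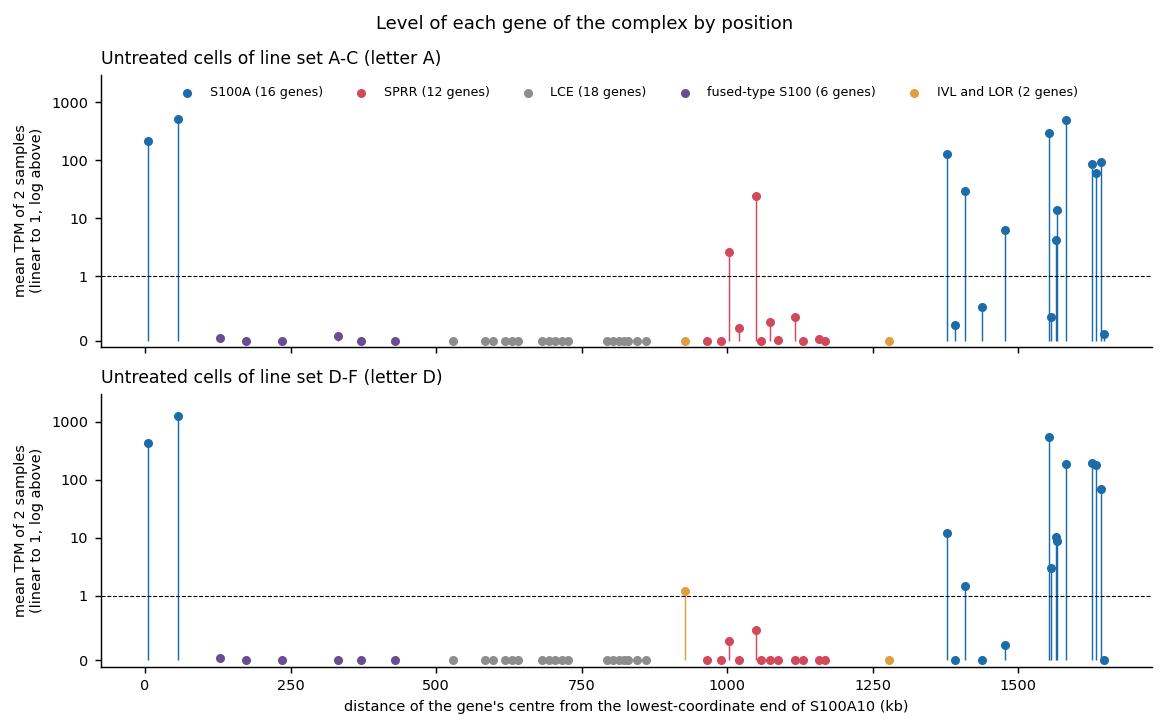
Mean TPM of the 2 untreated samples (vertical axis, linear to 1 and logarithmic above, dashed line at 1 TPM) of each of the 54 genes against its distance in kb from the low-coordinate end of S100A10, for letter A (top) and letter D (bottom), coloured by gene class. Of the 16 S100A genes at both ends, 12 stand above the line in each panel, the LCE genes and LOR lie at 0 in both panels, and SPRR1A and SPRR1B pass the line in letter A alone.

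The silent members included the late genes of cornification. LOR, HRNR, FLG2, CRNN and 17 LCE genes had no count in any sample, and LCE3D had 1 count, in B2. FLG had 12 and 4 counts in A, 4 and 0 in B, 8 and 6 in C and none in D-F, with at most 0.121 TPM. TCHH reached 5 counts in A2 and RPTN 4 counts in B2. Among the SPRR genes other than SPRR1A, SPRR1B and SPRR2A, SPRR5 and SPRR2F had no count and the remaining 7 had at most 6 counts in a sample, none of them in D-F. LCE genes, SPRR2 genes, the pair SPRR1A and SPRR1B, and the pair S100A7 and S100A7A have near-identical copies, so the division of reads among them is uncertain.

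The abundant members were S100A genes. Summed over the 54 members, the level was 1981 ± 98.9 TPM in A, 2089 ± 176 in B, 2375 ± 54.4 in C, 2894 ± 78.6 in D, 2798 ± 458 in E and 2694 ± 235 in F (SD, n = 2 each). S100A genes made up nearly all of it, with 1954 ± 97.9 TPM in A and 2892 ± 80.0 TPM in D. SPRR genes summed to 27.6 ± 1.05 TPM in A and 0.76 ± 1.08 TPM in D. S100A11 (chr1:152032506-152047907), a binding partner of annexins, had the highest median in both sets, 709 TPM in A-C and 1013 TPM in D-F. S100A2, a p53 and p63 target of basal keratinocytes, came next in A-C at 516 TPM and had a median of 181 TPM in D-F. S100A6 (251 and 606 TPM) and S100A10 (227 and 455 TPM), the latter the partner of annexin A2, followed in A-C and came directly after S100A11 in D-F. S100A13, S100A16 and S100A9 were neighbours in the order of A-C with medians of 93.2, 92.5 and 90.3 TPM, and their samples overlapped.

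Counts of 17 members passed the filter on low counts and were tested in one edgeR fit with the other genes, 19944 in all. The 37 others, SPRR2A among them, had at most 12 counts in a sample. The filter asked for at least 0.809 CPM in at least 2 samples, which 10 of the 17 met within each set on its own. S100A7, S100A7A, S100A8, SPRR1A and SPRR1B met it through A-C alone and IVL and S100A5 through D-F alone, so the difference of these 7 between the sets was given by the filter and is described without a test. S100A7A met it through letter A alone, SPRR1A through letter C alone and S100A5 through letter D alone. The direction of their differences by dose in that set was therefore given by the filter. Calls needed an adjusted p of at most 0.05 and at least a 2-fold difference.

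Untreated cells of the 2 sets were compared in the 10 members that met the filter within both sets. Higher in D by the call were 4 of them (S100A4, S100A11, S100A14 and S100A16), where 12% of the 16236 genes that met the filter within both sets were called higher. Lower in D were 2 (S100A2 and S100A9), where the share of those genes was 8.32%. Over all 19944 tested genes the shares were 15.7% and 11.0%. The median log2 fold change was 0.77 over the 10 members and -0.02 over the 16236 genes. S100A6, S100A10 and S100A3 passed the adjusted p below 2-fold, and S100A13 did not pass it.

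S100A9 and S100A8 were higher in every sample of A-C than in any of D-F, and so, at low levels, were S100A7 and S100A7A. In all but S100A9 this difference was given by the filter. S100A9 (chr1:153357854-153361027) and S100A8 (chr1:153390032-153391188) encode the subunits of calprotectin, an antimicrobial protein of neutrophils and stressed keratinocytes. S100A9 was at 122 and 137 TPM in A1 and A2 and at 12.1 and 11.9 TPM in D1 and D2, without overlap. Its log2 fold change was -3.54 (SE 0.21, edgeR adjusted p = 1.37e-06). S100A8 was at 29.5 and 28.3 TPM in A and at 0.606 and 2.29 TPM in D, from 4 and 13 counts, with no overlap. S100A7 (psoriasin), an antimicrobial protein of inflamed epidermis, had 26 and 28 counts in A (6.97 and 5.56 TPM) and 2 and 0 counts in D, at least 9.30-fold lower. S100A7A, its near copy, had 11 and 26 counts in A and none in D, at least 6.10-fold lower. S100A12, the other calgranulin, had at most 4 counts in any sample.

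SPRR1B (chr1:153031202-153032900), an inducible crosslinker of the envelope, was at 25.2 and 22.8 TPM in A, from 121 and 142 counts, and at 0 and 0.92 TPM in D, from 0 and 6 counts. Both samples of A lay above both of D. SPRR1A had 2 and 12 counts in A and 0 and 2 in D, so that the groups touched at 2 counts. Its deposited model is 1 stretch of 270 bases that starts 1150 bases downstream of the RefSeq start and leaves out the RefSeq start. IVL went the other way, with 0 and 0 counts in A and 18 and 29 in D (0.918 and 1.46 TPM), at least 7.52-fold higher in D.

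Among the abundant S100A genes the differences were smaller and ran in both directions. S100A2 was at 503 and 493 TPM in A and 185 and 181 TPM in D, a log2 fold change of -1.49 (SE 0.17, edgeR adjusted p = 7.82e-05). S100A14, an S100 protein of epithelial cells, was at 61.8 and 56.4 TPM in A and 181 and 176 TPM in D, a log2 fold change of 1.45 (SE 0.17, edgeR adjusted p = 9.35e-05). S100A16, its neighbour on the chromosome, was at 93.7 and 76.0 TPM in A and 192 and 199 TPM in D, a log2 fold change of 1.09 (SE 0.13, edgeR adjusted p = 9.05e-05). In none of these did the groups overlap. Without A2 the difference of S100A16 was 0.97 on the log2 scale, below 2-fold.

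S100A4, linked to cell motility, was at 4.12 and 4.18 TPM in A and at 11.9 and 8.89 TPM in D (log2 fold change 1.09, SE 0.38, edgeR adjusted p = 0.0410). That call was lost in DESeq2, without the filter on low counts and when any one of 10 of the 12 samples was left out (adjusted p of 0.0112 to 0.165 over all alternatives). S100A11 was at 418 and 623 TPM in A and 1309 and 1174 TPM in D (log2 fold change 1.12, SE 0.36, edgeR adjusted p = 0.0284), and its call was lost without A1, without D1 or without D2 (0.83, 1.06 and 1.18 on the log2 scale). The share of S100A11 given to the transcript ENST00000478109, 1 of its 2 transcripts, was 18.8% and 1.86% in A and 1.82% and 2.75% in D. S100A10 (208 and 224 TPM in A, 472 and 395 in D) and S100A6 (338 and 257 in A, 508 and 601 in D) had log2 fold changes of 0.77 and 0.77, with edgeR adjusted p-values of 9.21e-05 and 0.00681. S100A3 had 11.3 and 16.2 TPM in A and 8.95 and 8.62 TPM in D (log2 fold change -0.79, edgeR adjusted p = 0.0372). S100A13 had 85.6 and 102 TPM in A and 65.5 and 72.6 TPM in D and did not pass the adjusted p. S100A5 had 0.724 and 0 TPM in A and 2.05 and 3.91 TPM in D.

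**Figure D2:**
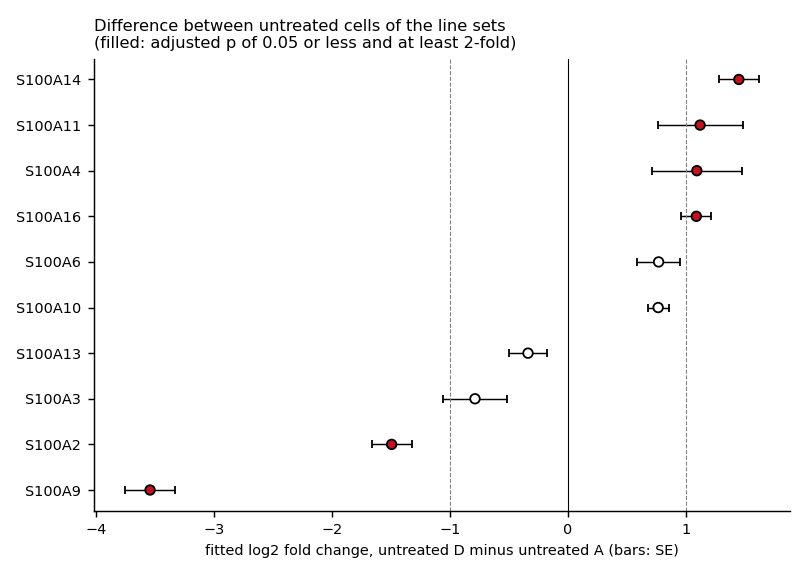
Fitted log2 fold change of untreated D over untreated A (horizontal axis, bars are standard errors, dashed lines at 2-fold) for the 10 members that met the low-count filter within both sets, with called members filled. S100A9 lies farthest to the left, S100A2 next, and S100A14 farthest to the right.

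At 200 ng/ml, averaged over the 2 sets, 0 of the 17 tested members were called in edgeR and 0 in DESeq2, where 2.14% of all tested genes were called in edgeR. At an unadjusted p under 0.05 there were 2 higher (IVL and S100A10) and 1 lower (S100A9). IVL rose in A-C alone, from 0 counts in A, and in D-F its log2 fold change was -1.30 at 200 ng/ml and -0.82 at 20 ng/ml. The median log2 fold change was -0.09 for the members and -0.01 for all tested genes. S100A9 alone passed the adjusted p, below 2-fold, where 4.57% of all tested genes were lower by that criterion. At 20 ng/ml 0 members were called in edgeR and 0 in DESeq2, against 1.15% of all tested genes, with IVL higher and S100A9 lower at an unadjusted p under 0.05. Between 200 and 20 ng/ml 0 members were called in edgeR and 0 in DESeq2, against 0.0451% of all tested genes, and 0 had an unadjusted p under 0.05.

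S100A9 was compared at both doses in A-C, where neither dose passed the adjusted p. It was at 122 and 137 TPM in A, 93.1 and 82.6 TPM in B and 87.5 and 70.8 TPM in C, so that no treated sample reached a control. In D-F it was at 12.1 and 11.9 TPM in D, 10.3 and 13.1 TPM in E and 10.8 and 7.93 TPM in F, where E overlapped D and F lay below it. The log2 fold change at 200 ng/ml averaged over the sets was -0.57 (SE 0.15, edgeR adjusted p = 0.0394), and it was -0.70 (SE 0.18, edgeR adjusted p = 0.0528) in A-C and -0.44 (SE 0.23, edgeR adjusted p = 0.353) in D-F. At 20 ng/ml in A-C it was -0.56 (SE 0.18, edgeR adjusted p = 0.225). Under 3 of 6 alternatives of the fit, in edgeR or DESeq2, the averaged value missed the threshold (adjusted p of up to 0.0811). The averaged value missed the threshold when any one of 8 of the 12 samples was left out (A1, A2, B1, B2, C2, D1, D2 or F2), with an adjusted p of up to 0.138. S100A8 followed the same order of levels in A-C, with 29.5 and 28.3 TPM in A, 17.3 and 19.3 in B and 19.4 and 11.02 in C, but its log2 fold change of -0.87 (SE 0.51) in A-C had an edgeR adjusted p of 0.36. S100A7 was at 6.97 and 5.56 TPM in A, 2.55 and 2.44 in B and 3.91 and 2.90 in C (log2 fold change at 200 ng/ml -0.83, SE 0.63, edgeR adjusted p = 0.497). The treated samples of S100A8 and S100A7 in A-C all lay below both controls, and neither gene was called. S100A7A had 11 and 26 counts in A, 6 and 7 in B and 5 and 8 in C. It met the filter through letter A alone, so that its lower counts in B and C were given by the filter. In TPM its sample C1 (1.02) lay above both controls (0.323 and 0.728).

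The crosslinker SPRR1B had the opposite order in A-C, with 25.2 and 22.8 TPM in A, 31.3 and 30.1 in B and 30.4 and 55.8 in C, while D-F stayed at or below 0.949 TPM. Its log2 fold change at 200 ng/ml in A-C was 0.85 (SE 0.51, edgeR adjusted p = 0.372), and the highest sample, C2, stood apart from C1. SPRR1A had 2 and 12 counts in A, 9 and 11 in B and 14 and 20 in C. It met the filter through letter C alone, so that its rise in C was given by the filter. SPRR2A, not tested, had 0 and 5 counts in A, 6 and 5 in B and 5 and 9 in C. Summed over the 12 SPRR genes the level was 27.6 ± 1.05 TPM in A, 37.5 ± 1.53 in B and 55.3 ± 21.9 in C (SD, n = 2), and the 2 samples of C differed by more than the step from A to B.

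Within A-C 1 of the 17 tested members was called at 200 ng/ml in edgeR (IVL, higher) and 0 in DESeq2, where 2.18% of all tested genes were called in edgeR. The median log2 fold change was -0.05 over the 17, also with IVL at its bound, and -0.003 over all tested genes. IVL (chr1:152908545-152911886) had 0 and 0 counts in A, 5 and 19 in B and 9 and 6 in C, which was 0.557 and 0.431 TPM in C. Set against 3 counts in each control, the mean of IVL was at least 3.14-fold higher in C and at least 3.96-fold higher in B. Most of the counts in B came from B2. These bounds allow for counting error in the controls alone. The edgeR adjusted p was 0.0431 in C and 0.0912 in B. IVL did not pass the filter when the compared groups were fitted alone. The call at 200 ng/ml was lost when any one of 10 of the 12 samples was left out (all but B1 and B2), with an adjusted p of up to 0.183. In D-F IVL had 18 and 29 counts in D, 14 and 7 in E and 11 and 4 in F (log2 fold change at 200 ng/ml -1.30, SE 0.73, edgeR adjusted p = 0.399).

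**Figure D3:**
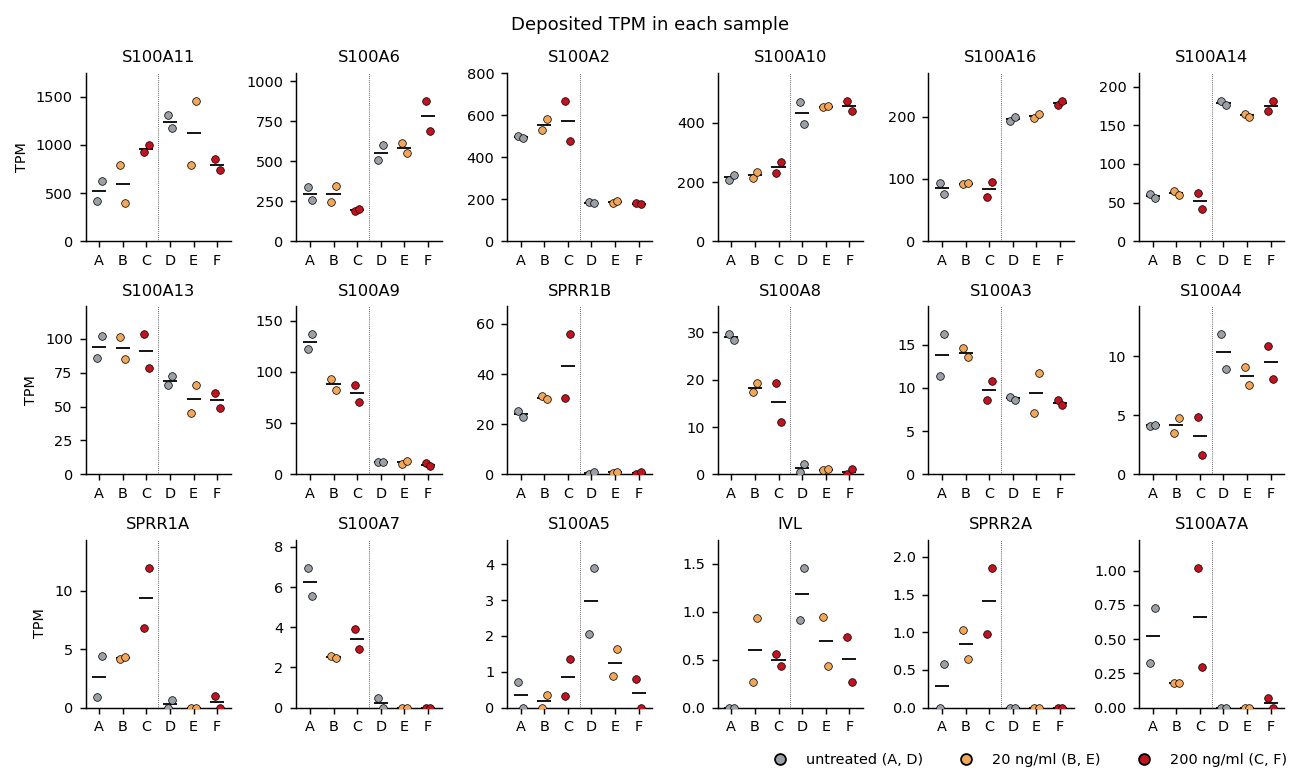
Deposited TPM (vertical axis of each panel, starting at 0) in the 2 samples (points) and their mean (bar) of letters A to F for the 17 members above a mean of 1 TPM in some letter and for S100A7A, coloured by dose, with a dotted line between the sets. S100A7, S100A8, S100A9 and SPRR1B are higher in A to C than in D to F, where they are near 0 or low, and S100A9 is highest in the untreated samples of A-C.

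Within D-F 0 of the 17 tested members were called at 200 ng/ml in edgeR and 0 in DESeq2, against 2.09% of all tested genes, and at an unadjusted p under 0.05 there was 1 (S100A6, higher). The median log2 fold change was -0.20 over the 17, or -0.22 over the 14 with more than 3 counts in some library of D or F, and 0.00 over all tested genes. S100A6, a calcium sensor of proliferating cells, was at 508 and 601 TPM in D, 611 and 551 in E and 875 and 692 in F, both samples of F above both of D. The log2 fold change was 0.42 (SE 0.18, edgeR adjusted p = 0.255). In A-C the same gene was at 338 and 257 TPM in A, 246 and 347 in B and 188 and 204 in C, a log2 fold change at 200 ng/ml of -0.59 (SE 0.19, edgeR adjusted p = 0.0929).

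For S100A11 the order of levels was also opposite in the sets. It was at 418 and 623 TPM in A, 796 and 400 in B and 924 and 1000 in C, and at 1309 and 1174 TPM in D, 792 and 1454 in E and 851 and 737 in F. At 200 ng/ml the fold change was, on the log2 scale, 0.90 (SE 0.36, edgeR adjusted p = 0.179) in A-C and -0.73 (SE 0.36, edgeR adjusted p = 0.321) in D-F. The share of the transcript ENST00000478109 was 18.8% in A1, 13.0% in B2, 11.96% in E1, 8.28% in F1 and 11.1% in F2, and 1.38% to 3.93% in the other 7 samples. In every letter except C the sample with the larger share of this transcript had the lower level of the gene, and the part of transcript assignment in the level was not tested.

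The difference of the 200 ng/ml response between the sets was tested directly. In edgeR 0 of the 17 members were called and in DESeq2 0, where 0.998% of all tested genes were called in edgeR. At an unadjusted p under 0.05 there were 1 higher in D-F (S100A6) and 2 lower (IVL and S100A11). The difference of the log2 fold changes, D-F minus A-C, was 1.01 for S100A6 (SE 0.26, edgeR adjusted p = 0.0905) and -1.63 for S100A11 (SE 0.51, edgeR adjusted p = 0.140). For S100A9 it was 0.26 (SE 0.29, edgeR adjusted p = 0.713), which leaves both a like and an unlike response within the error.

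The remaining abundant S100A members gave no call at either dose. S100A10 was at 208 and 224 TPM in A, 230 and 269 in C, 472 and 395 in D and 473 and 442 in F (averaged log2 fold change at 200 ng/ml 0.16, SE 0.06, edgeR adjusted p = 0.164). S100A2 was at 667 and 479 TPM in C and 181 and 176 in F, an averaged log2 fold change of 0.00 (SE 0.12). S100A14 had 62.6 and 41.4 TPM in C and 169 and 181 in F (averaged log2 fold change -0.14, SE 0.12), and S100A16 had 71.9 and 94.7 TPM in C and 219 and 225 in F (0.04, SE 0.09). S100A13, which overlaps S100A1 on the opposite strand in libraries that kept the strand, had 103 and 78.3 TPM in C and 60.2 and 49.1 in F (-0.13, SE 0.12). S100A3 had 8.64 and 10.8 TPM in C and 8.56 and 7.98 in F (-0.26, SE 0.19), and S100A4 had 4.86 and 1.66 TPM in C and 10.9 and 8.06 in F (-0.27, SE 0.28). None of these 7 had an adjusted p below 0.164 at 200 ng/ml, and their averaged log2 fold changes at 20 ng/ml lay between -0.20 (S100A4) and 0.11 (S100A3). S100A5 had 13 and 18 counts in D, 4 and 9 in E and 4 and 0 in F, and at most 6 counts in A-C. It met the filter through letter D alone, so that its fall in D-F was given by the filter. S100A1, a calcium sensor of muscle, had at most 9 counts in a sample and none in D-F.

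**Figure D4:**
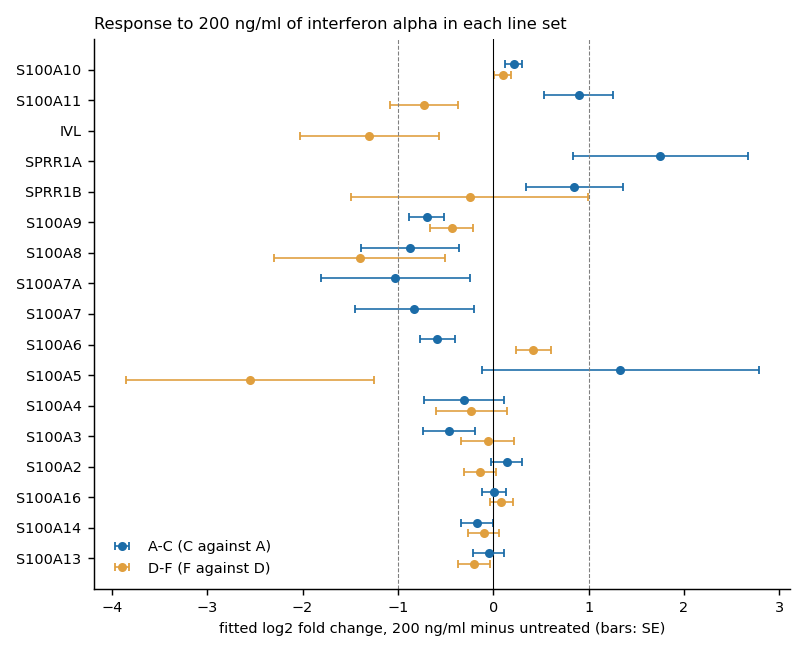
Fitted log2 fold change at 200 ng/ml over untreated cells (horizontal axis, bars are standard errors, dashed lines at 2-fold) for the 17 tested members in A-C and in D-F. IVL in A-C and S100A7, S100A7A and SPRR1A in D-F are left out because all libraries of a letter had at most 3 counts, and S100A6 and S100A11 lie on opposite sides of 0 in the 2 sets. The direction of S100A7A and SPRR1A in A-C and of S100A5 in D-F was given by the low-count filter.

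Cornification genes outside the complex were read from 5 lists of known genes, of which 51 genes were tested. At 200 ng/ml 2 were called higher and 1 lower, averaged over the sets, against 2.14% of all tested genes called. KRT6A, a keratin of activated keratinocytes, went from 178 and 168 TPM in A to 236 and 473 in C and from 51.1 and 47.5 TPM in D to 181 and 149 in F (log2 fold change 1.21, SE 0.11, edgeR adjusted p = 0.000153). KLK10, a kallikrein protease, went from 1.78 and 2.47 TPM in A to 3.84 and 3.66 in C and from 0.147 and 0.193 TPM in D to 2.75 and 1.92 in F (log2 fold change 1.93, SE 0.36, edgeR adjusted p = 0.00924). Within A-C neither KRT6A nor KLK10 was called, and within D-F both were. CNFN (cornifelin), a protein of the envelope, had 16 and 13 counts in D and none in F, at least 3.85-fold lower, while in A-C it had 2 and 6 counts in A and 6 and 2 in C. CNFN met the filter through letter D alone, so that its fall in D-F was given by the filter, and DESeq2 did not call it. TGM1, the transglutaminase that crosslinks the envelope, was at 1.93 and 2.52 TPM in A and 3.09 and 2.85 in C and was not called.

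Between untreated cells of the sets, 41 of these 51 genes met the filter within both sets, and 12 of them were called higher in D and 7 lower (29.3% and 17.1%, against 12% and 8.32% of all genes that met it so). Among the other 10 genes, 2 were called higher and 6 lower, with the direction given by the filter. Of 7 crosslinking and envelope genes that met it within both sets, 1 was higher (EVPL) and 1 lower. CSTA (cystatin A), an envelope protease inhibitor, was at 33.4 and 30.2 TPM in A and 5.32 and 8.52 in D (log2 fold change -2.29, SE 0.31, edgeR adjusted p = 0.000264), and PI3 (elafin), another inhibitor that is crosslinked into the envelope, was at 14.7 and 15.8 TPM in A and 0 and 1.75 in D, having met the filter through A-C alone. Of 8 barrier proteases, inhibitors and lipid enzymes that met it within both sets, 2 were higher and 3 lower. Through A-C alone came KLK5, SERPINB3, SERPINB4 and CERS3. KLK5, a protease of skin shedding, had 192 and 351 counts in A and none in D, at least 90.7-fold lower. SERPINB3, a protease inhibitor of squamous cells with a near copy in SERPINB4, had 130 and 142 counts in A and none in D, at least 46.8-fold lower. Of 15 regulators that met the filter within both sets, 7 were higher and 1 lower. SOX2, which met it through A-C alone, had 26 and 26 counts in A and none in D, at least 8.997-fold lower. ELF3, an epithelial ETS factor, was at 20.8 and 23.4 TPM in A and 116 and 112 in D (log2 fold change 2.07, SE 0.10, edgeR adjusted p = 4.26e-07), and GATA3 at 2.93 and 1.73 TPM in A and 11.8 and 8.34 in D (log2 fold change 2.11, SE 0.25, edgeR adjusted p = 0.000115). Of 7 keratins and desmosome genes 1 was higher (DSC2) and 2 were lower (KRT16 and KRT6A). Among S100 genes elsewhere and their partners, 1 of the 4 that met the filter within both sets was called. S100P met it through D-F alone and had 2 and 0 counts in A and 114 and 112 in D, at least 36.3-fold higher. TLR4, a receptor for calprotectin, was at 2.23 and 1.38 TPM in A and 13.3 and 15.9 in D (log2 fold change 2.83, SE 0.18, edgeR adjusted p = 2.14e-06).

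Of the 33 other genes inside the complex, BX470102.1 and AL589986.2 had a mean above 1 TPM in some letter, at most 2.07 and 1.59 TPM, from at most 9 and 8 counts in a sample. None of the others had a mean above 0.818 TPM. Counts of 2 were tested, and 0 were called at 200 ng/ml in edgeR (0 at an unadjusted p under 0.05 and 0 in DESeq2). PGLYRP4, a peptidoglycan recognition protein, had 10 and 16 counts in A and none in D, at least 4.38-fold lower. It met the filter through A-C alone, and its call in D against A was lost when any one of 10 of the 12 samples was left out.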

How the data were processed

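RNA of untreated and IFNα-treated HNSCC cells was sequenced from rRNA-depleted, strand-specific libraries. The submitters' processing notes name Trimmomatic 0.36, HISAT2 2.1.0, StringTie 1.3.3b and GRCh38.p10, and the annotation release is not given in the sources used here. The authors deposited an estimated count, not scaled for depth, for each gene and transcript, and TPM values that the authors had scaled for length and depth. FPKM was not used.

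Counts were fitted with edgeR 4.0.16 in R 4.3.3 (TMM, filterByExpr, quasi-likelihood test, 6 letters, Benjamini-Hochberg adjustment over 19944 genes). Standard errors were derived from the F statistic and the fitted fold. Calls between the sets were read for genes that met the filter within each set on its own, a choice made after seeing the data. Folds against letters with at most 3 counts in every library were set against 3 counts. They took the mean of the higher letter as measured, so "at least" allows for counting error in the lower letter alone. DESeq2 1.42.0 was an alternative, others being the size factors, the filter, the block, the threshold and leaving out each sample. The fit was tested on simulated data. Members and lists were chosen with earlier results of these data known. Named genes were members above a mean of 1 TPM in a letter or called, and up to 3 called genes of each other list with the largest changes, and TGM1 was added after its values were seen. Tables and figures were made with Python 3.11.15, pandas 2.3.3, numpy 2.4.6 and matplotlib 3.10.9. Total counts were 10517448 to 16056734 per sample, and the small number of replicates limits precision. Some results are not reported here.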

Additional observations from a re-analysis of the deposited data

Results flagged for a closer look

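In 3 members every 200 ng/ml sample lay on one side of both controls in A-C and on the other side in D-F. The difference of the log2 fold changes, D-F minus A-C, was -7.52 for IVL, -1.63 for S100A11 and 1.01 for S100A6. The difference itself was tested in edgeR and missed the threshold in each, with adjusted p-values of 0.0652, 0.140 and 0.0905. The value of IVL rests on controls with 0 counts in A-C and is no bound.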

How the results depend on the processing

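Counts of called members at 20 ng/ml, at 200 ng/ml, between the doses, in D-F and for the difference between the sets were 0 under every alternative except for the threshold. At an unadjusted p of at most 0.05 with a 2-fold change, 1 member was called at 200 ng/ml, 1 at 20 ng/ml and 3 for the difference between the sets. At an adjusted p with no minimum fold, 1 was called at 200 ng/ml. In A-C the 1 call (IVL) became 0 with DESeq2, with the replicate block and with the compared groups alone, and 0 to 1 when leaving out a sample. Between untreated sets the 11 calls, 5 of which were given by the filter, became 9 to 14. The 1 call among neighbouring genes became 0 with library size alone, 0 with the replicate block, 2 without the filter on low counts, 2 with the compared groups alone and 0 to 2 when leaving out a sample (0 in 10 and 2 in 2 of the 12). Alternatives for S100A9 at 200 ng/ml, for the other lists and for the neighbours were chosen after seeing the data. Within the sets, deviations of samples with the same replicate number were nearly uncorrelated (correlations of -0.051 to 0.058 over 6 pairs of letters). No pairing by number was seen, and these values cannot exclude a weaker one. With the replicate block the calls of IVL in A-C (adjusted p = 0.0851) and of S100A4 and S100A11 in D against A were lost. With library size alone the median of all genes moved to 0.10 on the log2 scale in D against A, no direction of a called member turned, and of the calls for the difference between the sets 72.9% were higher, against 62.3%. The number of members above the TPM level moved within 1.5 times under levels of 0.5 and 2 and when leaving out a sample. Depth limits IVL, S100A5, S100A7, S100A7A and SPRR1A, which rest on few counts.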
